A study of Mus musculus with 6 samples.

Results

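The BCL-2 family decides whether a cell's mitochondria release the factors that start apoptosis. The genes described here were 5 of its BH3-only death promoters (Bcl2l11, which encodes Bim, Pmaip1, which encodes Noxa, Bid, Bbc3, which encodes Puma, and Bmf), the pro-survival members Bcl2, Bcl2l1 (Bcl-xL) and Mcl1, and the pore-forming effectors Bax and Bak1. A probe set, the group of oligonucleotides that gives 1 value per array, was taken as a member when its annotated gene symbol was exactly 1 of these 10. This gave 30 of the 45101 probe sets, and they covered 9 of the 10 genes. Bax had no such probe set and was not analysed here.

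RNA from 6 samples of mouse T cells had been measured on Affymetrix arrays. In all of them CD4+CD25- cells from pooled lymph nodes of C57BL/6 mice were stimulated for 2 days through CD3 and CD28 with TGF-β1 at 5 ng/ml and IL-2 at 200 U/ml, which steer them towards regulatory T cells, and were infected with a retrovirus on day 1. The E47 group (3 samples) carried pMIT-E47-ER and the control group (3 samples) carried pMIT-bHLH-ER, and the sources used here do not describe that insert further. Cells of both groups were sorted as CD4+Thy1.1+ and then kept for 6 hours with IL-2, both antibodies and 1 µM tamoxifen, which releases proteins joined to an estrogen receptor (ER) domain into the nucleus. Each of 3 experiments gave 1 E47 and 1 control sample. The mice were 7 weeks old in experiment 1, 8 in experiment 2 and 9 in experiment 3, and a sample pooled 3 of them, or 4 in experiment 3. No sample lacked tamoxifen. These are bulk cultures, so fewer cells with a transcript and less of it per cell cannot be told apart.

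As background, BH3-only proteins carry death signals. Bim, Puma and the cleaved form of Bid bind all the pro-survival proteins and can also activate Bax and Bak directly, while Noxa mainly occupies Mcl-1. Pro-survival proteins hold BH3-only proteins and effectors in check, and the balance between the sides sets the threshold for death. In T cells Bim is required for the deletion of self-reactive thymocytes and for the contraction of responses when cytokines run out, Bcl-2 is sustained by cytokines of the common γ chain, and Mcl-1 is needed for survival at many stages. E47 is a basic helix-loop-helix factor of the Tcf3 gene that binds the E-box, CANNTG, with a preference for CAGCTG and CACCTG or its complement CAGGTG.

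Levels below are log2 of the deposited intensity, and differences are E47 minus control on that scale. They were tested with limma over 45037 probe sets with the experiment as a block, and a probe set was called at an adjusted p below 0.05. The arrays were alike, with correlations from 0.987 to 0.996 between any 2 of them. Among T cell markers, Cd3d lay between 12.70 and 12.82 in E47 and between 12.57 and 12.74 in control samples. Cd4 (1419696_at) lay between 8.00 and 8.21 in E47 and between 7.90 and 8.21 in control. In the list of 5 measured CD4 T cell markers, 5 of 6 probe sets were higher in E47. The log2 of the summed intensity of all 6 was 13.83 to 14.10 in E47 and 13.65 to 13.88 in control. None of them was called (lowest adjusted p = 0.312). The 6 probe sets of the CD8 markers Cd8a and Cd8b1 lay between 3.68 and 7.51 in E47 and between 3.26 and 6.73 in control. Purity of the sorted cells was not tested. Foxp3, the lineage factor of regulatory T cells, was 6.36, 7.83 and 6.07 in E47 and 6.42, 8.16 and 6.29 in control experiments 1 to 3. The construct genes Tcf3, Esr1 (an estrogen receptor gene) and Thy1 were read by 7 probe sets, of which 1, of Thy1, was called. The 3 probe sets of Tcf3 had differences of -0.01, 0.28 and 0.02, and neither Tcf3 nor Esr1 had a call. Whether these probes match the insert was not examined, so they do not check the labels. Thy1, whose Thy1.1 form marked infected cells, had a difference of 0.82 (SE 0.09, adjusted p = 0.0498, and 0.428 without the block, 0.372 without experiment 2 and 0.435 without experiment 3).

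Start regions from RefSeq (build GRCm38.p6, 250 bases before to 50 after an annotated start) were found for 9 of the 10 genes, 16 windows in all. None was found for Pmaip1, and the windows include that of Bax, which had no probe set. Both windows of Bcl2l11 are printed because this gene carried the calls, and 1 of the 3 of Bmf because it held the most E-boxes among the members while none of its probe sets was called. Capitals mark CANNTG, which reads the same pattern on both strands, and GTAAACA or its complement TGTTTAC, a core bound by FOXO factors.
Bcl2l11, upstream start, chr2:128125788-128126087, plus strand: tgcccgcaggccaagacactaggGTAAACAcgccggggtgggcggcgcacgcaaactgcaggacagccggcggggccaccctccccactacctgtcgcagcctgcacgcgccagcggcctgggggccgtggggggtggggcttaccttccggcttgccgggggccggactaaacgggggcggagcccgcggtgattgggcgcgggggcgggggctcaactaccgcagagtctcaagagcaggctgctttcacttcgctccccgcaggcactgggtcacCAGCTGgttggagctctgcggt
Bcl2l11, downstream start, chr2:128127325-128127624, plus strand: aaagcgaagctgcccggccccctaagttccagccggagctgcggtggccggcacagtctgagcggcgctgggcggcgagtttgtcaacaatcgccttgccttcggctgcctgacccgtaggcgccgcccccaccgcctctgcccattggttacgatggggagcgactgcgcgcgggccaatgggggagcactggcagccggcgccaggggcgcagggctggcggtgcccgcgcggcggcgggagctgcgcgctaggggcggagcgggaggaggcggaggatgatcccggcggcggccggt
Bmf, chr2:118549637-118549936, minus strand: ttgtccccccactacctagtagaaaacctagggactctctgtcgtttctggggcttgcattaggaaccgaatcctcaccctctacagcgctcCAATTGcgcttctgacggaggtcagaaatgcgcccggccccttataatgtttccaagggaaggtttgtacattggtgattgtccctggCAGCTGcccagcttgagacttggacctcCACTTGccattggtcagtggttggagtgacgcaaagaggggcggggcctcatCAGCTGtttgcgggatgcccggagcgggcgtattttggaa

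The upstream window of Bcl2l11 held 1 CAGCTG, which begins 28 bases past the start, and 1 GTAAACA, which begins 227 bases before it, and its downstream window held neither pattern. The window of Bmf held 4 CANNTG, 2 of them CAGCTG. Of the 16 windows 11 held CANNTG, against 72.3% of 32851 windows in the whole table. CAGCTG was in 4 of the 16, 3 of them of Bmf, against 16.3% of all windows. CACCTG or CAGGTG was in 2, both of Bbc3, against 20.2%, and GTAAACA or TGTTTAC in 2, of Bcl2l11 and Bbc3, against 3.65%. The single windows of Bcl2, Bid and Bak1 held 0 CANNTG. Such matches are letters in a window, and binding was not measured.

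The comparison of E47 with control asked which BCL-2 family transcripts differ between the constructs. Bim RNA was about 4-fold higher in E47 on the 4 of its 5 probe sets that were called, and 3.02-fold higher on the other. The 4 were the only calls among the 30 probe sets. Thus 4 were called higher and 0 lower, against 0.238% and 0.0333% of all probe sets called in each direction. At an unadjusted p under 0.05 the members counted 13 higher and 0 lower in limma, where 4.33% and 4.74% of all probe sets stood. The 13 were 5 of Bcl2l11, 3 of Bid, 3 of Bcl2, 1 of Pmaip1 and 1 of Bmf. The median difference was 0.16 over the members and -0.02 over all probe sets, and 22 of 30 were higher in E47 (44.7% of all). E47 and control arrays did not overlap in 9 of the 30, all with E47 above, a pattern that 4.57% of all probe sets showed. The 9 were 5 of Bcl2l11, 3 of Bid and 1 of Mcl1. Probe sets of the same gene are not independent, and the members were chosen with earlier results of these data known. These counts therefore do not describe the family as a whole. A difference above 0 in each of the 3 experiments was seen in 15 of the 30 and below 0 in each in 2, against 13.5% and 17.5% of all probe sets. The 4 calls became 1 without the block (0.115% of all probe sets were called then), 8 without experiment 1, 3 without experiment 2 and 0 without experiment 3. The shares of all probe sets called higher were then 1.08% without experiment 1, 0.0755% without experiment 2 and 0.00888% without experiment 3.

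**Figure D1:**
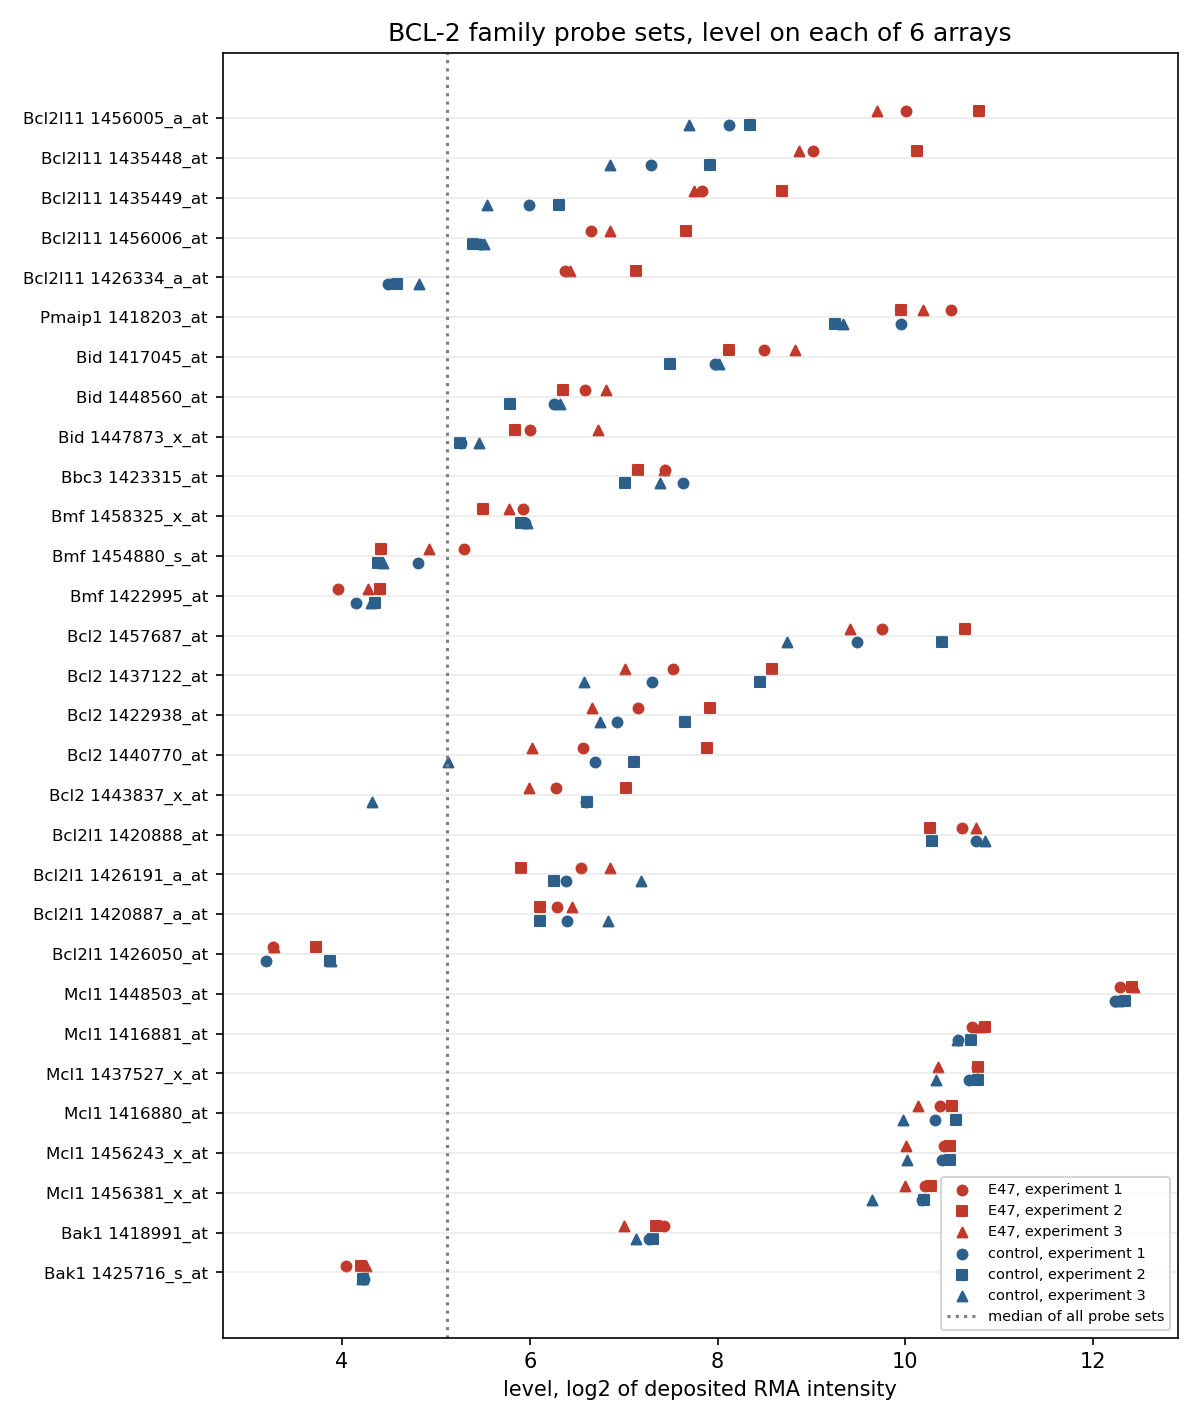
Level of each of the 30 member probe sets on the 6 arrays, as log2 of the deposited intensity on the horizontal axis, with E47 in red above control in blue and 1 marker shape per experiment. The dotted line is the median of all probe sets, 5.12. The 5 Bcl2l11 rows are the ones with a wide gap between the groups.

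Bim kills by binding pro-survival proteins through its BH3 helix, and it is made in several splice forms. Its brightest probe set, 1456005_a_at, had levels of 10.01, 10.79 and 9.70 in E47 experiments 1 to 3, against 8.13, 8.35 and 7.69 in control. Every E47 array was above every control array, with a gap of more than 1 log2 unit between the lowest E47 and the highest control array. The difference was 2.11 (SE 0.13, 4.32-fold, adjusted p = 0.00526). Probe set 1435448_at had 9.02, 10.12 and 8.86 in E47 and 7.29, 7.92 and 6.86 in control, a difference of 1.98 (SE 0.11, adjusted p = 0.00516). Probe set 1435449_at had 7.83, 8.69 and 7.75 in E47 and 5.99, 6.31 and 5.54 in control, a difference of 2.14 (SE 0.12, adjusted p = 0.00502). In both, the groups again did not overlap and experiment 2 was highest in each group.

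The dimmer Bim probe sets gave differences of like size. Probe set 1426334_a_at had 6.38, 7.13 and 6.43 in E47 and 4.49, 4.59 and 4.82 in control, a difference of 2.01 (SE 0.18, adjusted p = 0.0226). Its control levels were below the median of all probe sets, 5.12, and whether they exceed background was not analysed here, so the size of its rise is uncertain. Probe set 1456006_at, with 6.65, 7.66 and 6.86 in E47 and 5.47, 5.40 and 5.52 in control, had a difference of 1.60 (SE 0.21) and missed the threshold (adjusted p = 0.0833). Its 3 within-experiment differences, 1.18, 2.27 and 1.34, were the most spread of the 5. Each of the 5 had its largest difference in experiment 2, and the 15 differences ran from 1.18 to 2.54.

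Without the block the 5 adjusted p lay between 0.0223 and 0.259, and only 1426334_a_at was called. Without experiment 3 the differences were 1.72 to 2.21 and 0 of 5 were called (adjusted p from 0.145 to 0.514), while over all probe sets only 4 were then called higher and 0 lower in limma. Without experiment 2 there were 3 calls among the 5, with 1426334_a_at just above the threshold (adjusted p = 0.05003), and without experiment 1 all 5. With the experiment as a random block 1435448_at was not called (adjusted p = 0.0738) and 1456006_at was (adjusted p = 0.04995). With an offset of 16 before log2 1426334_a_at was not called (adjusted p = 0.0675).

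**Figure D2:**
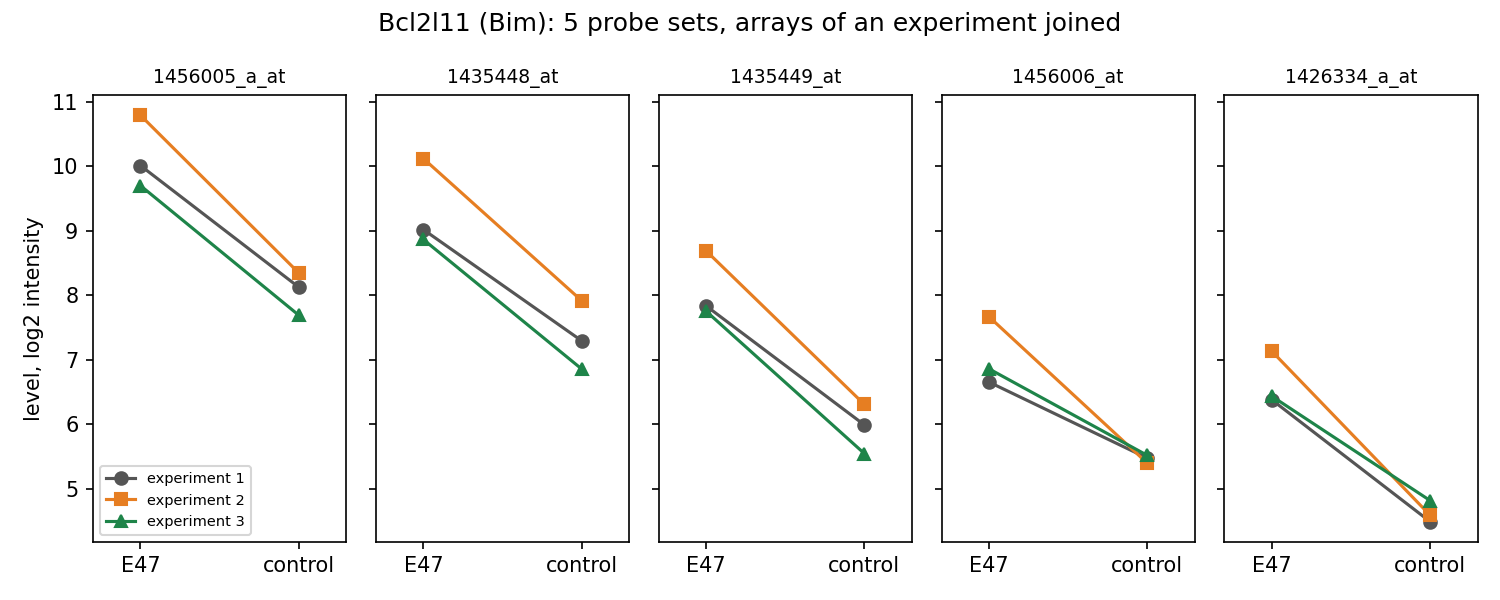
Level of the 5 Bcl2l11 probe sets on the log2 scale, E47 on the left and control on the right of each panel, with the arrays of an experiment joined. The lines slope down in every panel and experiment, with differences of 1.18 to 2.54, and the experiment 2 line is the highest of the E47 values.

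Noxa, a BH3-only protein that binds Mcl-1 and is a classic p53 target, was read by 1 probe set. Pmaip1 had levels of 10.49, 9.96 and 10.19 in E47, against 9.96, 9.25 and 9.34 in control. The groups touched, since the lowest E47 array, of experiment 2, and the highest control array, of experiment 1, were both at 9.96. Within experiments the differences were 0.53, 0.71 and 0.85, with a mean of 0.70 (SE 0.10, 1.62-fold, 95% interval 0.46 to 0.93). It missed the threshold over all probe sets (adjusted p = 0.0884, and 0.737 without the block). Tested with 1 probe set per gene, so over fewer features, it passed (adjusted p = 0.0276), as it did without experiment 1 (adjusted p = 0.0329).

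Bid, which caspase-8 cleaves to link death receptors to mitochondria, was higher in E47 in each experiment on all 3 of its probe sets. The brightest, 1417045_at, had 8.49, 8.12 and 8.82 in E47 and 7.97, 7.49 and 8.02 in control, a difference of 0.65 (SE 0.09, 1.57-fold, adjusted p = 0.100). Probe set 1448560_at had 6.59, 6.35 and 6.81 in E47 and 6.25, 5.78 and 6.32 in control, a difference of 0.46 (SE 0.09, adjusted p = 0.200). Probe set 1447873_x_at, whose suffix marks probes that may match other transcripts, had 6.00, 5.84 and 6.73 in E47 and 5.26, 5.26 and 5.46 in control, a difference of 0.87 (SE 0.15, adjusted p = 0.148). The E47 arrays were above the control arrays without overlap on all 3, and none was called. With 1 probe set per gene Bid passed as well (adjusted p = 0.0321), without experiment 1 1417045_at passed (adjusted p = 0.0447), and without the block its adjusted p were 0.566 to 0.808.

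The other BH3-only genes were not called. Puma, a strong BH3-only protein best known as a p53 target, had Bbc3 levels of 7.44, 7.15 and 7.43 in E47 and 7.64, 7.02 and 7.39 in control. Its difference was -0.01 (95% interval -0.25 to 0.23, adjusted p = 0.986) and turned to 0.01 with median centring. Bmf, a BH3-only protein tied to the cytoskeleton, was read by 3 probe sets that pointed different ways. Probe set 1458325_x_at had 5.93, 5.50 and 5.78 in E47 and 5.95, 5.91 and 5.97 in control (difference -0.21, adjusted p = 0.615). Probe set 1454880_s_at had a difference of 0.34 (adjusted p = 0.509) and 1422995_at of -0.06 (adjusted p = 0.877), and both had mean levels below the median of all probe sets.

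Among pro-survival genes, Bcl2, which holds Bim and the effectors in check, had positive mean differences on all 5 probe sets and no call. Its brightest probe set, 1457687_at, had 9.76, 10.64 and 9.41 in E47, against 9.48, 10.39 and 8.74 in control. Both groups were highest in experiment 2 and lowest in experiment 3, so they overlapped widely although each pair differed the same way. The difference was 0.40 (SE 0.11, 95% interval 0.12 to 0.68, adjusted p = 0.423). Probe set 1437122_at had 7.52, 8.58 and 7.01 in E47 and 7.30, 8.45 and 6.58 in control, a difference of 0.26 (adjusted p = 0.521). Differences of the other 3 were 0.13 (1422938_at), 0.52 (1440770_at) and 0.59 (1443837_x_at), with adjusted p from 0.548 to 0.728. On 1443837_x_at the 3 experiments gave -0.31, 0.41 and 1.67, and the last rests on a control level of 4.32, the lowest of its 6 values. On 1440770_at they gave -0.13, 0.78 and 0.89, and without experiment 1 this probe set passed (adjusted p = 0.0264).

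Bcl-xL and Mcl-1, the other survival proteins, had no called probe set. Bcl2l1 had 10.60, 10.26 and 10.75 in E47 on its brightest probe set, 1420888_at, and 10.76, 10.29 and 10.85 in control, a difference of -0.09 (95% interval -0.29 to 0.11, adjusted p = 0.771). Its 4 probe sets were all lower in E47 on average, with differences from -0.23 to -0.09 and the lowest adjusted p at 0.673. The dimmest of them, 1426050_at, lay between 3.19 and 3.88 on the 6 arrays. Mcl1 encodes a short-lived protein that Noxa antagonises. Its probe set 1448503_at had 12.29, 12.42 and 12.44 in E47 and 12.23, 12.34 and 12.27 in control, a difference of 0.10 (95% interval -0.10 to 0.30, adjusted p = 0.747). Its 6 probe sets had differences between 0.00 and 0.18, and no 95% interval reached beyond -0.19 or 0.39. On 1416881_at the E47 arrays lay above the control arrays without overlap (10.71, 10.85 and 10.79 against 10.56, 10.70 and 10.55), with a difference of 0.18 (adjusted p = 0.591).

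Bak, an effector that forms pores in the outer mitochondrial membrane, had Bak1 levels of 7.43, 7.35 and 7.00 in E47 and 7.26, 7.31 and 7.14 in control on 1418991_at. The difference was 0.02 (95% interval -0.21 to 0.25, adjusted p = 0.960), and it was below 0 with quantile normalization (-0.04). Its other probe set, 1425716_s_at, was dim, between 4.04 and 4.26 on the 6 arrays, with a difference of -0.06 (adjusted p = 0.876). The sizes thus ran from Bim near 2 log2 units, through Noxa and Bid at 0.46 to 0.87 and Bcl2 at 0.13 to 0.59, to Mcl1, Bcl2l1, Bbc3 and Bak1, whose probe sets all lay between -0.23 and 0.18, with Bmf at -0.21 to 0.34. The intervals of Bim, 1.06 at their lowest end, did not meet those of Noxa (0.93 at most), while those of Bid reached 1.23 and of Bcl2 (1443837_x_at) 1.45 and met the lowest of Bim, and those of Noxa, Bid and Bcl2 overlapped.

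**Figure D3:**
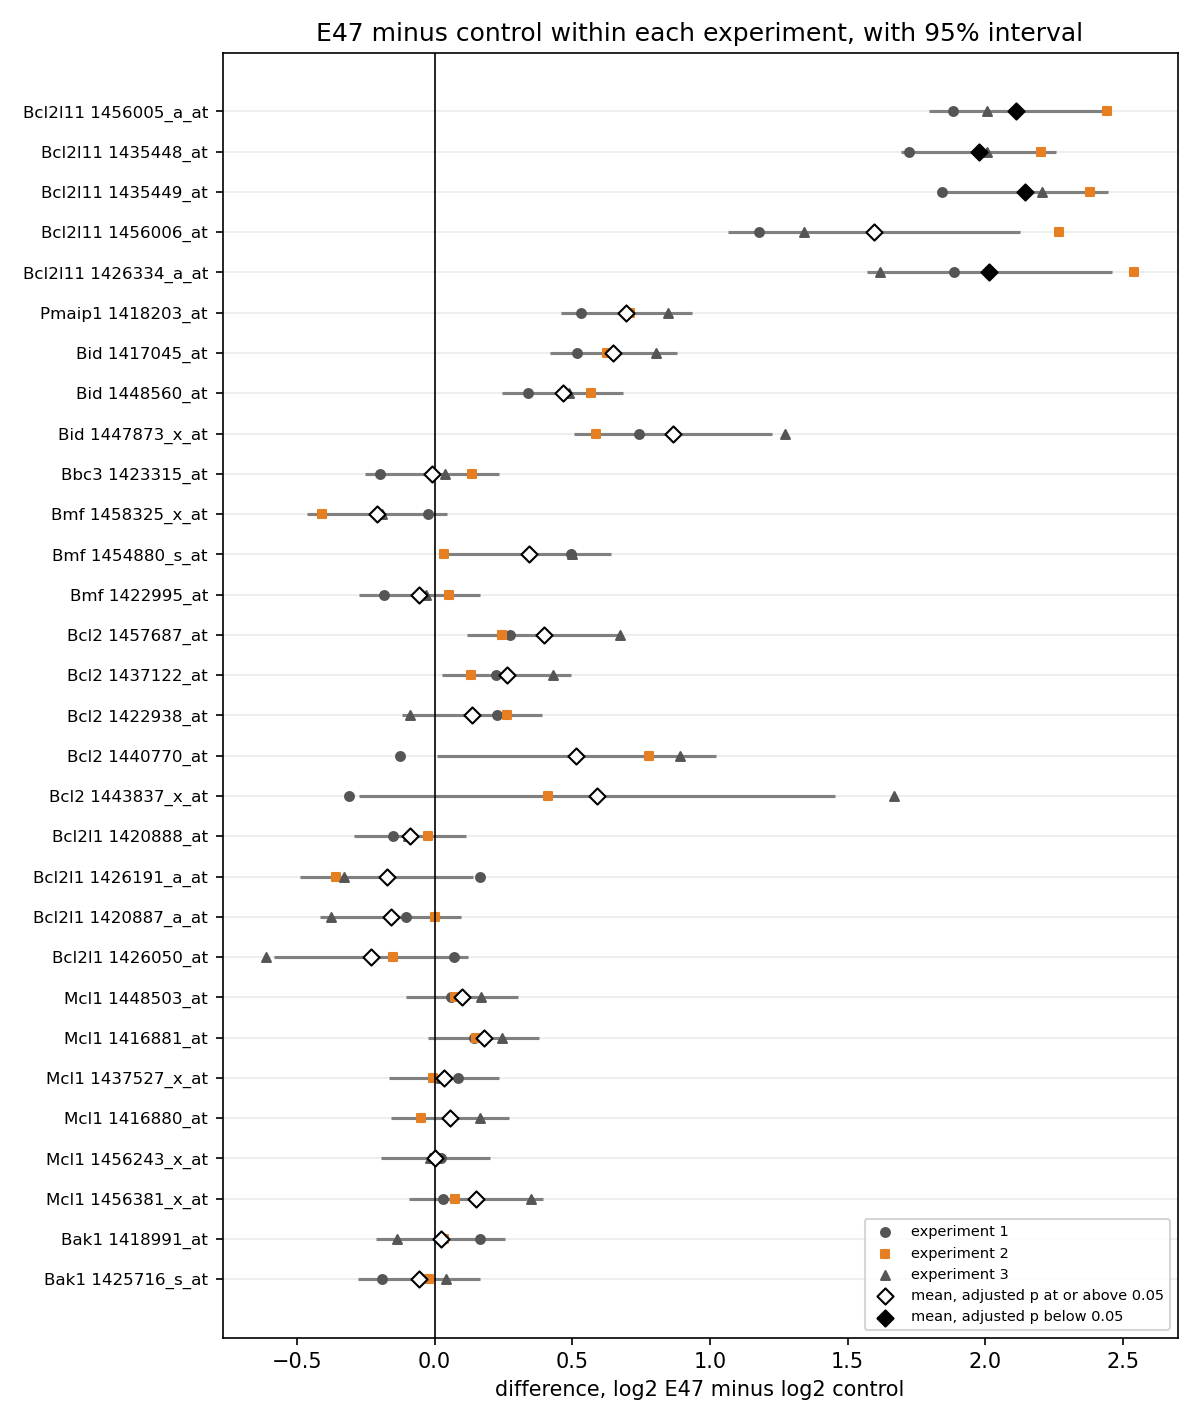
Difference of E47 minus control on the log2 scale for each of the 30 member probe sets. Small symbols are the 3 experiments, diamonds their mean (filled where the adjusted p is below 0.05) and bars the 95% interval from limma, not adjusted for the number of probe sets. The 4 filled diamonds are all Bcl2l11, at 1.98 to 2.14, and the Pmaip1 and Bid rows, at 0.46 to 0.87, are open diamonds with every experiment above 0.

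The members were next compared between the 3 experiments, with an F test of the experiment in the same fit. Bcl2 differed between experiments on 2 of its 5 probe sets, 1437122_at (adjusted p = 0.0170) and 1457687_at (adjusted p = 0.0402). These were the 2 calls among the 30 members, where 0.604% of all probe sets were called. All 5 Bcl2 probe sets were highest in experiment 2 in both groups, and the mean of its arrays exceeded that of experiments 1 and 3 by 0.91 to 1.41. On 1437122_at that excess was 1.41, against a difference of 0.26 between E47 and control. On the mean of E47 and control, Bim ran in the same direction, with experiment 2 exceeding the others by 0.33 to 1.01. The lowest adjusted p of Bim was 0.0616 (1435448_at). Experiment 2 was highest in both groups on only 3 of the 5 Bim probe sets. In control it was not highest on 1456006_at (5.47, 5.40 and 5.52 in experiments 1 to 3) or 1426334_a_at (4.49, 4.59 and 4.82). Bid and Pmaip1 ran the other way. Experiment 2 was lowest in both groups on all 3 Bid probe sets (by 0.31 to 0.52, lowest adjusted p = 0.164) and on Pmaip1 (by 0.39, adjusted p = 0.165), and none of these was called. Foxp3 was also highest in experiment 2 in both groups. Age of the mice, culture and any other feature of an experiment cannot be told apart here.

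**Figure D4:**
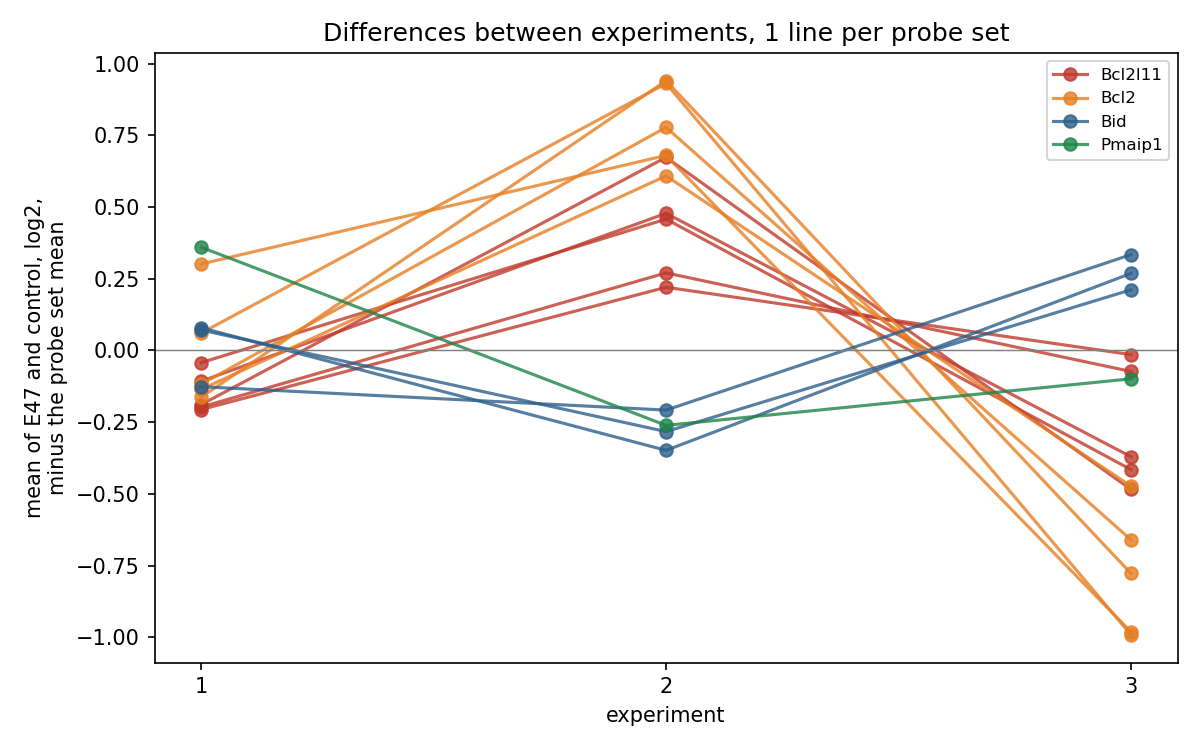
Mean of the E47 and control array of each experiment for the probe sets of Bcl2l11, Bcl2, Bid and Pmaip1, as log2 level minus the probe set's mean, with 1 line per probe set. Bcl2 and Bcl2l11 lines peak in experiment 2 and Bid and Pmaip1 lines have their lowest point there, while the F test called 2 Bcl2 lines (adjusted p = 0.0170 and 0.0402).

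The wider death pathway was read from 6 lists of 68 measured genes and 166 probe sets. None of these passed in either direction in limma (0 higher and 0 lower), and at an unadjusted p under 0.05 there were 8 higher and 6 lower, against 4.33% and 4.74% of all probe sets. Their median difference was -0.01. Of the other BCL-2 family genes, 11 of 16 were measured by a probe set of their own (median -0.06 over 21 probe sets). Bik, a BH3-only protein, had a difference of 0.15 on 1420362_a_at (adjusted p = 0.650), and its 3 probe sets ran from -0.03 to 0.15. Bcl2l2, which encodes the survival protein Bcl-w, had -0.23 on 1430454_x_at (adjusted p = 0.564), and its 4 probe sets ran from -0.26 to 0.09, the last on the brightest, 1423572_at. The Bcl2a1 genes share probe sets and were not analysed here.

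Cflar, Foxo1 and Perp had the lowest p-values of these lists. Foxo1, a forkhead factor of a family known to activate Bim transcription, had levels of 8.82, 9.36 and 8.70 in E47 and 8.24, 8.41 and 8.10 in control on 1416982_at. The arrays did not overlap, and the difference was 0.71 (SE 0.11, adjusted p = 0.111). Of its other probe sets, 1416983_s_at had a difference of 0.63, 1416981_at of 0.50 and 1456529_at of -0.10, and none was called. Without experiment 1, 1416982_at and 1416983_s_at of Foxo1 passed (adjusted p = 0.0482 and 0.0351). Trib3, a pseudokinase of stress responses in the same list of 11 genes (34 probe sets, median -0.03), had a difference of 0.60 on 1456225_x_at (adjusted p = 0.445) and of 0.38 on its other probe set. Cflar, which encodes c-FLIP, the inhibitor of caspase-8, had 7.98, 7.93 and 8.33 in E47 and 8.66, 8.55 and 8.86 in control on 1449317_at. Its E47 arrays were all below the control arrays there, with a difference of -0.61 (SE 0.08, adjusted p = 0.0869). The brightest Cflar probe set, 1424996_at, had -0.46 (adjusted p = 0.162), and its 5 probe sets ran from -0.61 to -0.13. Mlkl, the executor of necroptosis, had a difference of -0.42 (adjusted p = 0.200) in the same death receptor list of 11 genes (22 probe sets, median 0.02).

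The remaining lists had medians near 0. Among p53 and its targets (15 genes, 32 probe sets, median 0.04), Perp, a membrane protein induced by p53, had 9.10, 8.84 and 9.54 in E47 and 9.64, 9.70 and 10.13 in control, a difference of -0.67 (SE 0.10, adjusted p = 0.111, and 0.0499 without experiment 1). Aen, a p53-induced nuclease, had -0.26 on 1451186_at (adjusted p = 0.590), and its 4 probe sets ran from -0.26 to -0.07. Trp53 itself had no probe set of its own symbol and was not analysed here. In the mitochondrial pathway and caspase list (14 genes, 35 probe sets, median -0.01), Xiap, an inhibitor of caspases, had a difference of 0.38 on 1450231_a_at (adjusted p = 0.447). Its 7 probe sets ran from -0.09 to 0.38, and the brightest, 1437533_at, had 0.10. Htra2, a mitochondrial protease, had -0.25 on 1460495_s_at (adjusted p = 0.552) and -0.19 on its other probe set. Among turnover factors and partners of MCL-1 (6 genes, 22 probe sets, median 0.00), the deubiquitinase Usp9x had 0.43 on 1450037_at (adjusted p = 0.343), and its 7 probe sets ran from -0.05 to 0.43. Btrc, a ubiquitin ligase subunit, had -0.20 on 1425680_a_at (adjusted p = 0.617), and its 5 ran from -0.20 to 0.05.

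The probe sets most like Bim and Noxa over the 6 arrays were named by Pearson correlation, among annotated genes with a mean above the median. For the Bim probe set 1456005_a_at they were Tdrd7 (0.997), Cst6, Zdhhc14, Epcam and Sit1 (0.992 to 0.993), whose differences between E47 and control were 1.37, 4.46, 2.00, 3.04 and 1.34, all called. For Pmaip1 they were Ift22, Aifm1, G3bp1, Rab32 and Septin6 (0.982 to 0.992), with differences of 0.11 to 0.25 and no call (lowest adjusted p = 0.481). The points are 6 arrays that share the group and the experiment. The genes like Bim were picked for following a probe set that itself differed between the groups, so their calls are not a separate result.

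Markers of other cells were set beside these values. Of all probe sets 44.7% were higher in E47. Cd8a and Cd8b1, which define CD8 T cells, were higher in E47 on 6 of 6 probe sets, with the log2 of their summed intensity between 8.54 and 9.19 in E47 and between 8.16 and 8.75 in control, and none was called (lowest adjusted p = 0.365). Myeloid markers were lower on 7 of 8 probe sets, with sums of 7.91 to 8.02 in E47 and 8.01 to 8.16 in control (lowest adjusted p = 0.523). Markers of regulatory T cells, Foxp3 among them, were lower on 7 of 7 probe sets (median -0.12), with sums of 12.71 to 12.95 in E47 and 12.93 to 12.98 in control, and none was called (lowest adjusted p = 0.585). B cell markers were lower on 3 of 4, with sums of 6.33 to 6.83 in E47 and 6.42 to 7.00 in control, and Ncr1 of NK cells lay between 3.70 and 3.77 in E47 and between 3.80 and 3.89 in control. Of the CD8 probe sets 4, and of the myeloid ones 4, went the same way in all 3 experiments. So did 3 of the regulatory T cell and 0 of the B cell probe sets. The part of these cells, and of the higher Thy1 level in E47, in the differences above was not tested.

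**Figure D5:**
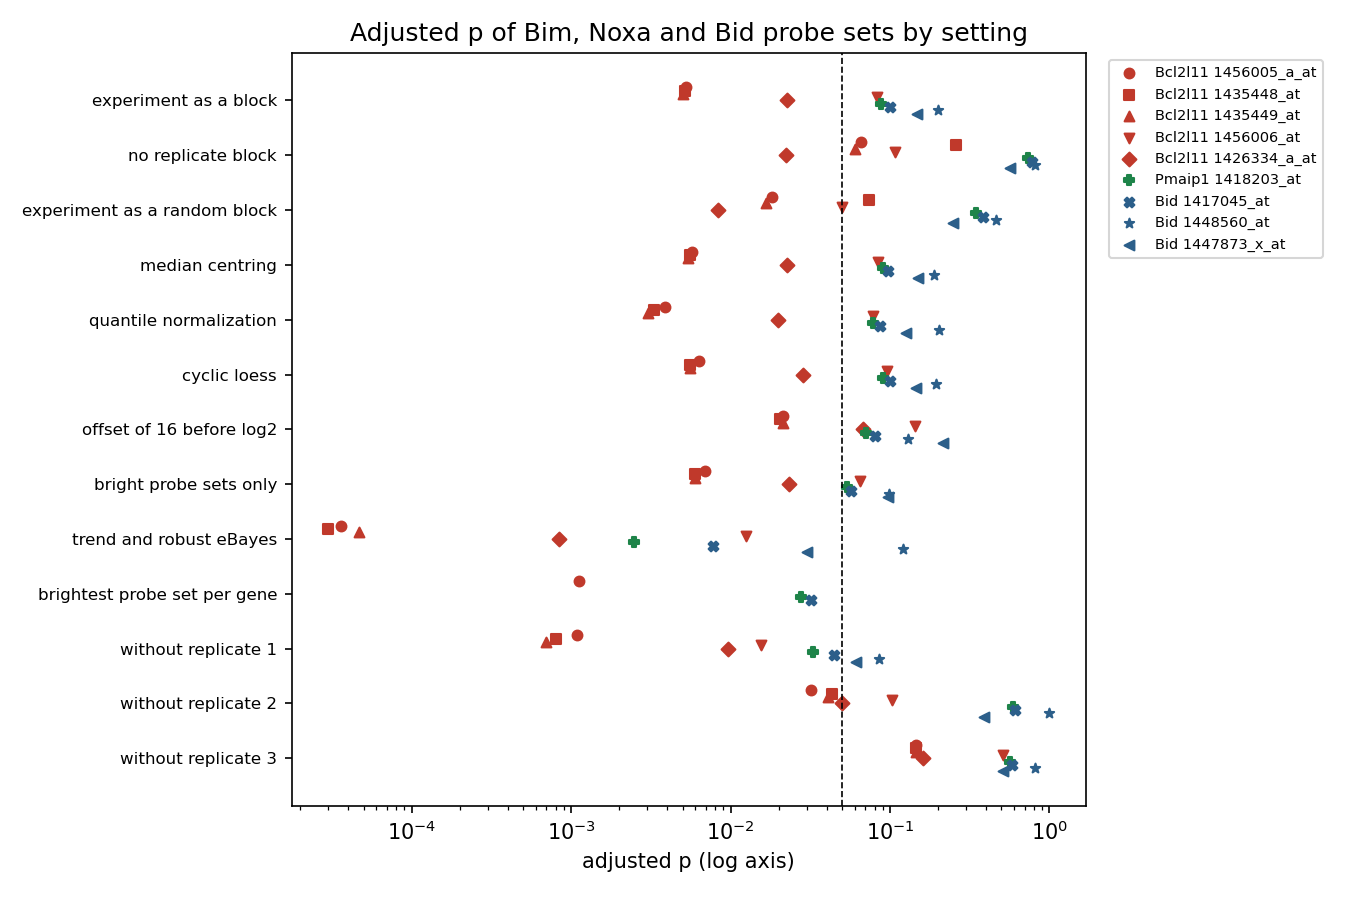
Adjusted p of the 5 Bcl2l11, 1 Pmaip1 and 3 Bid probe sets on a log axis, with 1 row per setting of the test and the dashed line at 0.05. The first row is the fit with the experiment as a block, where 4 Bcl2l11 symbols lie left of the line. Pmaip1 and the brightest Bid probe set cross it with a trend in the variance, with 1 probe set per gene and without experiment 1, and all 9 symbols lie right of it without experiment 3.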

How the data were processed

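The deposited table holds RMA intensities, the tool being named without a version per the submitters' processing notes. Its values were linear, so log2 was taken. Sample titles gave the groups and the replicate numbers.

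The 64 Affymetrix control probe sets were left out. limma 3.58.1 in R 4.3.3 (lmFit, eBayes, two-sided, Benjamini-Hochberg over 45037 probe sets) was fitted with group and experiment as terms. Pairing rests on the design text, which gives 3 independent experiments with 1 sample of each group, and on shared mouse age. Deviations from group means correlated at 0.09, 0.52 and 0.31 for same-numbered arrays, and at -0.43 to 0.22 otherwise. E47 array 1 correlated more with control array 3 (0.22) than with control array 1 (0.09). Such deviations cancel within each group, so these correlations are not independent of each other. The number of arrays, 3 a group, limits the precision, and there is no read depth.

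Of the probe sets tested, 34945 had 1 symbol in the platform annotation, 932 had several and 9160 were unlisted. The members and lists were chosen with earlier results of these data known. Every member probe set was tested and plotted. From each other list came up to 4 genes past the threshold and up to 2 that missed it, ranked on p. Cell markers came from fixed lists. The other probe sets of genes named from these lists were added after their values were seen. Alternatives changed the block, the scaling, the offset, the filter, the variance model, the probe set rule and the experiments used. In simulated data of 45037 probe sets the fit recovered 0% of changes of 0.5 on the log2 scale, 74.6% of changes of 1 and 95.5% of changes of 2, with 6 false calls. The simulated experiment effects had the same spread for every probe set. There the fit without the block recovered 82.1% of changes of 1 and 98.5% of changes of 2. In the real data leaving out the block lowered the number of calls, so these rates may not hold for them.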

Additional observations from a re-analysis of the deposited data

How the results depend on the processing

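With no replicate block 52 probe sets were higher and 0 lower in limma over the whole table, against 107 and 15 with it, and the members gave 1 higher (1426334_a_at of Bcl2l11) in place of 4. A random block gave 6 lower over all. Leaving out 1 experiment gave 4 to 486 higher and 0 to 65 lower over all, 0 to 8 higher and 0 lower among members, and 0 to 2 higher and 0 to 1 lower in the other lists, where the count had been 0 each way. A trend with robust eBayes gave 365 higher and 209 lower over all, 8 higher members, 2 higher and 3 lower in the other lists and 14 members that differed between experiments, against 2, while the share of all probe sets that did so was 4.03%, against 0.604%. Bright probe sets alone gave 41 lower over all, 1 lower in the other lists and 4 members that differed between experiments (2.7% of the probe sets kept). With 1 probe set per gene 66 were lower over all and with the mean of a gene's probe sets 67, each with 1 lower in the other lists, and an offset of 16 before log2 gave 25 and 1. The 0 lower members stayed at 0 in all 13 alternatives. The Bcl2l11 differences kept their sign in each, from 1.26 to 2.29.

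Differences near 0 changed sign without passing. Bbc3 was 0.0080 with median centring, Bmf 0.026 as a gene mean, Mcl1 (1456243_x_at) -0.0033 with quantile normalization, and Bak1 (1418991_at) -0.038 with quantile normalization and -0.018 as a gene mean. With 1 experiment left out the ranges were -0.080 to 0.086 for Bbc3, -0.11 to 0.0091 for Bmf (1422995_at), -0.0069 to 0.013 for Mcl1 (1456243_x_at), -0.050 to 0.100 for Bak1 (1418991_at) and -0.10 to 0.010 for its 1425716_s_at. The gene means of Bmf and Bak1 average probe sets of both signs, so no single probe set changed sign there. The cause of the other changes was not tested. Level over background limits the dim probe sets of Bmf, Bcl2l1 and Bak1.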
